A study of Mus musculus with 3 samples.

Results

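Long stretches of the genome that carried the Polycomb mark H3K27me3 but no peak of the Polycomb protein Suz12 are described here, as found in mouse small intestinal crypts. H3K27me3 peaks on chromosomes 1 to 19 were joined into a domain where the gap between neighbours was at most 5000 bp. A domain was kept if it spanned at least 20000 bp and shared no base with a Suz12 peak. This gave 118 domains among 275 of that length (42.9%), against 94.0% of domains of any length that held no Suz12 peak. The 118 domains contained 2208 of the 25955 H3K27me3 peaks in the deposited list and 8.93% of the autosomal sequence under such peaks. The domains were chosen by their length, by the spacing of their peaks and by the absence of Suz12, and these measures are given as a description only.

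Polycomb repressive complex 2 (PRC2) places methyl groups on lysine 27 of histone H3, and Suz12 is a core subunit that the complex needs to work. The trimethylated product, H3K27me3, lies over silent genes and is known both as narrow sites and as broad domains, in which the mark extends away from the sites where PRC2 is most concentrated. PRC2 can therefore be sharply localised inside a wider marked region. In the intestine, crypts hold the stem cells and the dividing progenitors that renew the lining, and Polycomb keeps genes of other tissues and stages silent there.

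The crypts came from C57BL/6 mice of genotype Lgr5Gfp-CreERT2. This allele drives a green fluorescent protein and a tamoxifen-inducible Cre from the stem cell gene Lgr5, and the series describes the cells as wild type. The labels name isolated crypts and no sort, so stem cells, progenitors, secretory cells and any cells attached to the crypt contribute to 1 average. The 3 libraries, all of this genotype, were 1 input without antibody, 1 precipitated with an antibody to Suz12 and 1 with an antibody to H3K27me3. The sources used here give no age, sex or number of animals for a library.

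With 1 library per antibody there is no replicate error, and no test was made: neighbouring peaks and domains of 1 library are not replicates. The 95% intervals of shares are exact Clopper-Pearson intervals and those of medians come from order statistics; both reflect counting error alone. Each deposited peak has a score, here called its value. The sources used here do not state its scale, so it serves to rank the peaks of 1 list. Neither list has a value below 8. Read depth is unknown, so a domain without a listed Suz12 peak is one where Suz12 was not detected, not one shown to lack it. No gene annotation of the build of the files (mm9) was used here, so regions are named by mm9 coordinates counted from 1, and the crypt label could not be checked against marker genes.

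The domains without Suz12 were mostly short members of their class. Their median length was 26526 bp (quartiles 21871 and 31606 bp), and the range ran from 20005 to 104934 bp. Just inside the limit of 20000 bp lay domains of 20005, 20196 and 20224 bp, with highest values of 22.6, 22.1 and 19.3. Just outside it, domains without Suz12 measured 19807, 19809 and 19908 bp, with highest values of 31.0, 16.1 and 29.7. Highest values on either side of the limit overlapped. A domain held a median of 16 H3K27me3 peaks, from 8 to 81. Together the 118 spanned 3.49 Mb, of which 1.31 Mb lay under peaks.

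Coverage by H3K27me3 peaks was sparse in most of these domains. Peaks covered a median of 36.3% of a domain's length (95% interval 33.4 to 39.4, quartiles 29.2% and 45.6%), with a range of 13.6% to 71.5%. In the 157 long domains with Suz12 the median was 54.9% (52.2 to 56.7, quartiles 46.5% and 62.8%). Of the domains without Suz12, 102 (86.4%, 95% interval 78.9 to 92.0) were covered over less than 50% of their length. Among those with Suz12, 56 were (35.7%, 28.2 to 43.7). Coverage moved with the joining gap in both sets: the medians were 59.4% without and 69.7% with Suz12 at 2000 bp, and 21.3% and 43.0% at 10000 bp. The gap in coverage was similar in each length class. From 20000 to 25000 bp the medians were 37.8% without and 56.0% with Suz12, from 25000 to 35000 bp 36.5% and 56.2%, and above that 35.3% and 52.7%. Domains of 5000 to 20000 bp without Suz12 were covered as sparsely as the long ones, with a median of 35.4% over 1197 domains. Their median highest value was 16.9 against 22.1. They held a median of 6 peaks against 16, and a maximum over fewer peaks tends to be lower. The part of peak number in this was not tested.

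Peaks that overlap Suz12 are themselves wide, so coverage was also taken outside them. With those peaks and the bases under them left out, the long domains holding Suz12 had a median coverage of 42.0% (95% interval 39.5 to 45.0, quartiles 35.6% and 50.7%). The median of the domains without Suz12 was 36.3% (95% interval 33.4 to 39.4), so it was still lower and the intervals of the medians do not overlap. The quartile ranges of the sets do overlap.

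Peaks were also compared one by one, since those that Suz12 touches are part of only 1 of the sets. Their 2208 peaks had a median value of 11.4 (quartiles 9.65 and 14.3) and a median width of 428 bp. In the domains with Suz12, the 3237 H3K27me3 peaks that no Suz12 peak touched had a median value of 12.1 and a median width of 460 bp. A value of 20 or more was reached by 160 of the 2208 peaks (7.25%, 95% interval 6.20 to 8.41), close to the 7.75% of all autosomal H3K27me3 peaks. For the untouched peaks in domains with Suz12 the share was 7.63% (6.74 to 8.60). The 709 peaks touched by Suz12 had a median value of 20.5, a median width of 1312 bp and 52.6% at 20 or more. The level of 20 was chosen after the values were seen.

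**Figure D1:**
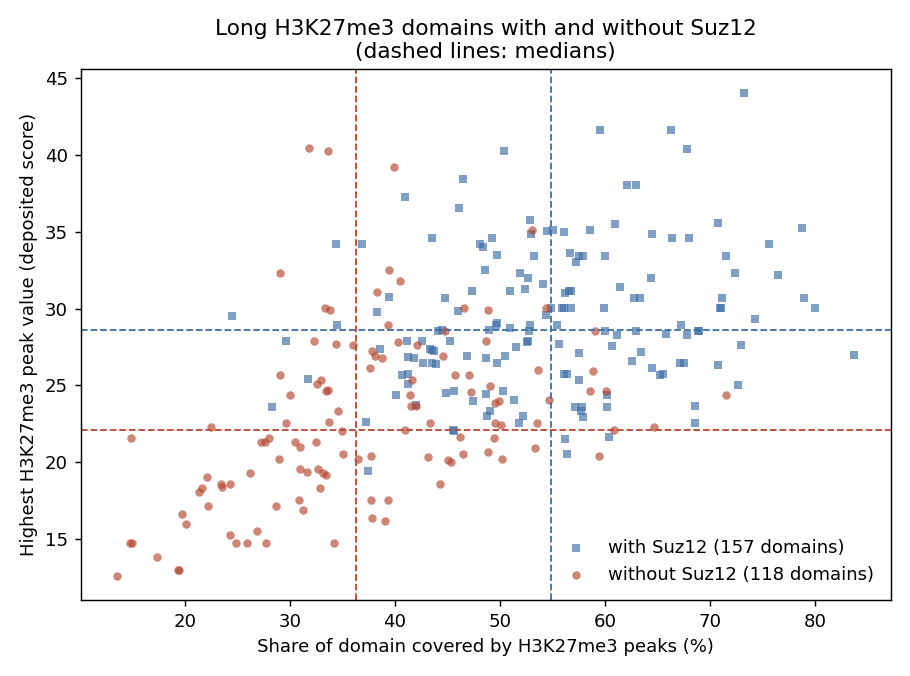
Each point is 1 long H3K27me3 domain, by the share of its length under H3K27me3 peaks (x axis, %) and the value of its highest peak (y axis, deposited score), for 118 domains without and 157 with Suz12; dashed lines are medians. Domains without Suz12 fill the lower left, with medians of 36.3% and 22.1 against 54.9% and 28.6, and the sets overlap above a value of 20.

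Gaps between neighbouring peaks were wider where Suz12 was not detected. Over 2090 gaps inside domains without Suz12 the median was 568.5 bp (quartiles 208 and 1480 bp), against 339 bp (155 and 794 bp) over 3789 gaps inside domains with it. Gaps of more than 1000 bp made up 34.4% (95% interval 32.3 to 36.4) without and 19.6% (18.3 to 20.9) with Suz12. The largest gap in a domain without Suz12 had a median of 3930.5 bp, and the widest was 4993 bp, just under the joining limit. Cut at every gap above 1000 bp, such a domain fell into a median of 7 pieces (range 2 to 19), and one with Suz12 into 5 (1 to 17). The longest piece had a median of 6400 bp, against 13859 bp in domains with Suz12. None of the 118 stayed whole at that limit, and 3 of the 157 with Suz12 did. Long domains of both kinds were thus mostly runs of separate patches at this resolution.

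Running numbers in the peak names give a count of peaks that are not in the list. Listed numbers follow genome order in both lists, and 25955 of 33967 H3K27me3 numbers are listed. The counts here assume that unlisted numbers follow the same order. Within the 118 domains, 377 numbers between the first and the last listed peak are unlisted, which is 14.6% of all numbers there (95% interval 13.2 to 16.0), against 10.7% (9.83 to 11.7) inside domains with Suz12. Over the whole H3K27me3 list 76.4% of numbers are listed, so the unlisted share is lower inside both sets of domains than over the list. At least 1 unlisted number fell in 112 of the 118 domains (94.9%), and in 144 of the 157 with Suz12 (91.7%). Gaps that held one were longer, with a median of 1905.5 bp, and gaps without one had a median of 422 bp. The sources used here do not say what the unlisted peaks were.

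Joining distance sets how many such domains there are. At a largest gap of 1000 bp only 1 of 40 long domains held no Suz12 peak, at 3000 bp 44 of 168, at 5000 bp 118 of 275 and at 10000 bp 310 of 521. The number without Suz12 grew faster than the number with it. At 10000 bp, 10 of the 118 became joined to a domain with Suz12, 54 grew without meeting one and 54 stayed as they were.

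**Figure D2:**
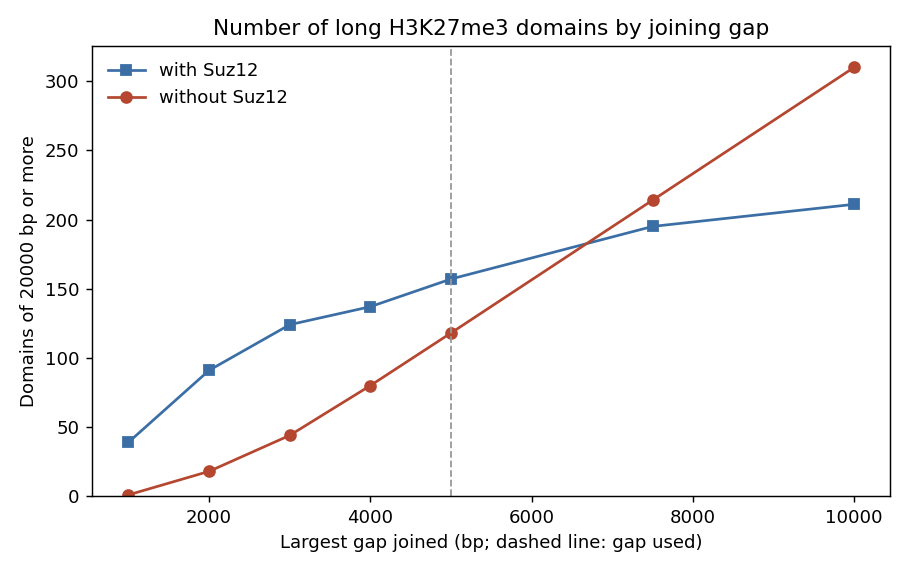
Number of H3K27me3 domains of 20000 bp or more (y axis) against the largest gap joined (x axis, bp), split by whether a Suz12 peak overlaps; the dashed line marks 5000 bp. Domains without Suz12 climb from 1 at 1000 bp to 118 at 5000 bp and 310 at 10000 bp.

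The longest domain without Suz12 lay on chromosome 7 at 52851186-52956119 and was unlike the others in size. It spanned 104.9 kb, held 81 H3K27me3 peaks and was covered over 49.1% of its length. Its 4 highest peaks had close values, 24.9, 24.1, 23.0 and 22.2, and stood 48.3, 94.8, 32.2 and 104.2 kb from its first base. The mark there was thus spread over the whole stretch without a single summit. The nearest Suz12 peak was 131.9 kb away.

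On chromosome 11, the domain at 117234393-117309462 was 75.1 kb long, covered over 38.3%, and had a single summit of 31.1 at 21.6 kb from its first base. No other peak there exceeded 22.1. A further chromosome 11 domain, at 85689679-85757659, measured 68.0 kb. Its 3 highest peaks, with values of 24.7, 23.8 and 22.1, all lay between 12.4 and 21.6 kb from its first base. From there to the far edge no peak exceeded 21.6. A Suz12 peak of value 10.8 lay 35.1 kb from this domain.

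The next in length, on chromosome 15 at 102912928-102979933, had its strong peaks at both ends. It spanned 67.0 kb, and peaks of 29.5 and 30.1 stood 3.75 and 64.4 kb from its first base. Between them no peak exceeded 18.4. Its neighbour 7.54 kb away, at 102733526-102905392, held 25 Suz12 peaks over 171.9 kb, while the nearest Suz12 peak itself was 66.0 kb off. Only the joining limit divides the 67.0 kb domain from that larger marked region.

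The other 6 of the 10 longest ranged from 44.5 to 58.9 kb and from 27.3% to 60.1% in coverage. On chromosome 3 at 87568955-87627859, peaks of 26.2 and 25.7 stood 29.9 and 45.1 kb from the first base. On chromosome 15 at 81890441-81947584, coverage was 27.3% and the highest value, 21.3, was shared by 2 peaks. The chromosome 9 domain at 34776395-34826986 had 1 summit of 28.9 and lay 2.13 Mb from Suz12. On chromosome 4, the domain at 139365518-139411434 reached 29.9 near one edge and that at 122850799-122895319 reached 25.4. The densest of the 10 was on chromosome 15 at 78180796-78226501, with 60.1% coverage and no unlisted H3K27me3 number inside.

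**Figure D3:**
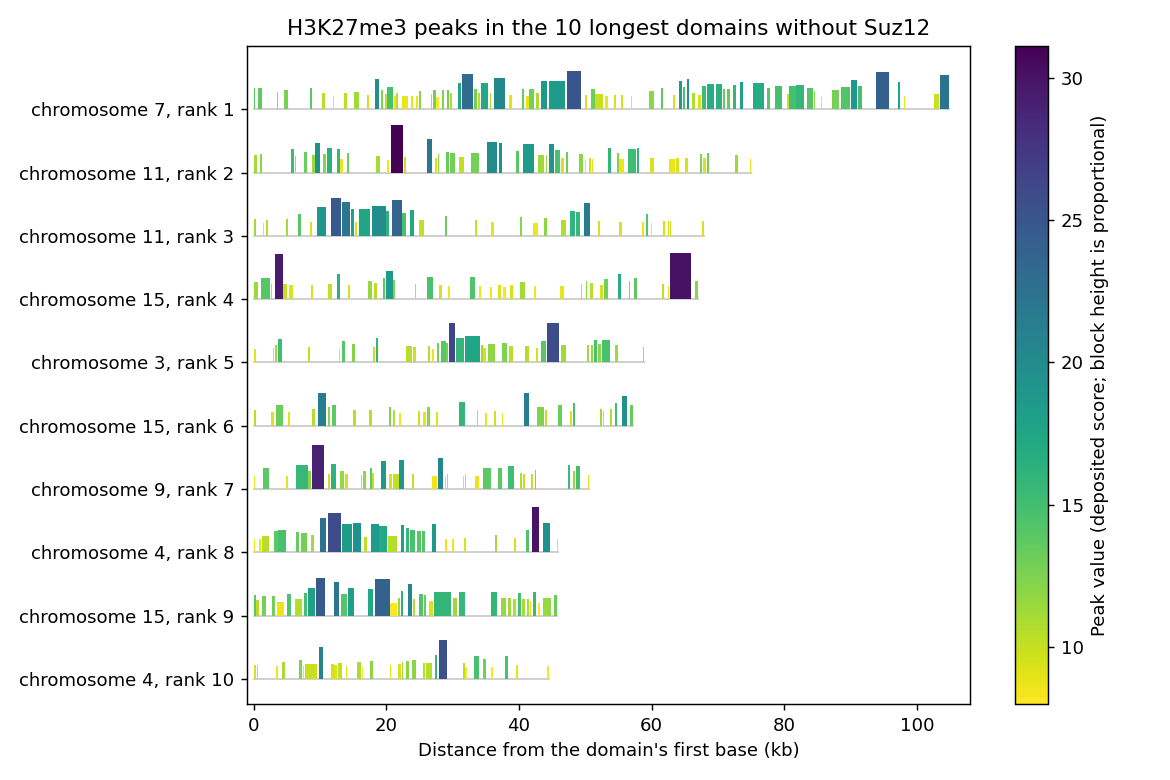
H3K27me3 peaks in the 10 longest domains without Suz12, 1 line per domain: the x axis is distance from the domain's first base (kb), and each block is 1 peak whose height and colour give its value (deposited score). The rank 1 domain, 104.9 kb long, carries peaks along its whole length, whereas the rank 4 domain has its values of 29.5 and 30.1 at opposite ends.

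Some domains without Suz12 had peaks close to the highest H3K27me3 value in the list, 44.1. A highest value of 30 or more occurred in 11 of 118 (9.32%, 95% interval 4.75 to 16.1), against 65 of 157 (41.4%, 33.6 to 49.5) with Suz12. The highest, on chromosome 17 at 34796125-34824987, reached 40.5 in a single peak of 2524 bp at 34807970-34810493, and the next peak in that domain had a value of 14.1. This domain was 1.54 Mb from a Suz12 peak. A similar lone summit stood on chromosome 2 at 131386916-131388222, with a value of 40.2 against 17.8 for the second peak of its domain (131371723-131393880). In both, 1 strong site stands far above the other peaks of its domain. The median peak value was 11.5 in the chromosome 17 domain and 14.2 in the chromosome 2 domain. The latter is above the upper quartile of such medians in the 118 domains, 12.3.

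The other 3 of the 5 highest had more than 1 strong peak. On chromosome 8, the domain at 87448653-87476217 had a summit of 39.3 that was 4070 bp wide and a second peak of 32.0. The domain on chromosome 10 at 19066304-19087552 reached 35.1, with 53.1% coverage. The domain on chromosome 19 at 5058676-5085379 reached 32.5. In the domains on chromosomes 2, 8, 10 and 19, the Suz12 peaks on either side carried consecutive numbers. For the chromosome 17 domain 1 number between them was unlisted.

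At the low end, 36 of the 118 domains (30.5%, 95% interval 22.4 to 39.7) had no peak of 20 or more. Only 1 of the 157 with Suz12 was so low (0.637%, 0.0161 to 3.50). Peaks touched by Suz12 count among the highest values of those 157. The share of long domains without Suz12 fell from 63.5% (51.5 to 74.4) where the highest value was between 20 and 25 to 27.3% (18.3 to 37.8) between 25 and 30 and 14.5% (7.45 to 24.4) from 30 upward. Within each of these classes the median coverage was lower without Suz12. Between 20 and 25 it was 43.1% in 47 domains without and 51.4% in 27 with Suz12, between 25 and 30 it was 39.8% in 24 and 52.0% in 64, and from 30 upward 39.5% in 11 and 56.7% in 65. By coverage, the share without Suz12 was 82.4% (69.1 to 91.6) between 30% and 40% covered and 7.55% (2.09 to 18.2) above 60%. Overlap with Suz12 was counted over the whole domain, gaps included, so a longer domain offers a Suz12 peak more sequence to overlap. By length, the share without Suz12 was 49.5% from 20000 to 25000 bp, 48.5% from 25000 to 35000 bp and 26.7% above that. The part of domain length in the shares by value and by coverage was not tested.

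Long domains that held a single Suz12 peak were not as low as those without. In 26 such domains the median highest H3K27me3 value was 28.4 and the median coverage 49.4%. With 2 to 4 Suz12 peaks the medians were 27.9 and 49.5% (66 domains), and with 5 or more 30.7 and 59.5% (65 domains). The domains without Suz12, at 22.1 and 36.3%, lay below all 3 classes. Where the highest H3K27me3 value stayed under 25, 28 domains nevertheless held Suz12, and their strongest Suz12 peak had a median value of 13.9. The list has no value below 8, so this median could not have been lower than that.

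The 5 sparsest domains had few and narrow peaks. Coverage was lowest, 13.6%, on chromosome 7 at 134197552-134220830, where 9 peaks reached at most 12.6. The domain on chromosome 9 at 124013892-124035705 was covered over 14.8% by 13 peaks, none wider than 326 bp, and ended 40.5 kb before the end of the chromosome. Coverage was 14.9% on chromosome 15 at 6999892-7021800, 15.0% on chromosome 4 at 41597001-41630154 and 17.4% on chromosome 6 at 85310404-85332011. The first of these 3 had 1 peak of 21.5 at its very edge. All 5 fell into 6 or more pieces when cut at gaps above 1000 bp.

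The densest domain had a coverage above the upper quartile of domains that hold Suz12. It lay on chromosome 7 at 25714275-25741632, with 71.5% coverage, 27 peaks, a largest gap of 1299 bp and 7 peaks of 20 or more, the highest at 24.3. The domain on chromosome 9 at 74694650-74716861 was covered over 64.7% and broke into 2 pieces at a limit of 1000 bp. Coverage was 60.9% on chromosome 2 at 25157417-25177612 and 59.5% on chromosome 4 at 151647714-151668310, which had the highest median peak value of any of the 118, 17.3. Highest values in these domains stayed between 20.4 and 24.6, below the median of 28.6 for domains with Suz12. The 45.7 kb domain on chromosome 15 described above, at 60.1%, is the other of the 5 densest.

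The strongest peak had no fixed place in domains without Suz12. Its centre was a median of 29.1% of the domain's length from the nearer edge (95% interval 23.5 to 33.6), where 50% is the exact middle and an even spread would give 25%. In domains with Suz12 the median was 33.4% (31.2 to 35.7). It fell within the outer 10% at either edge in 16 of 118 domains (13.6%, 95% interval 7.95 to 21.1) without and 6 of 157 (3.82%, 1.42 to 8.13) with Suz12. Of all H3K27me3 peaks, 521 of 2208 without and 851 of 3946 with Suz12 were centred in that outer 10%. In both sets the strongest peak was thus there less often than peaks in general. The strongest peak lay in the middle 20% in 25.4% (17.9 to 34.3) and 29.9% (22.9 to 37.8). The strongest peak held a median of 11.4% of a domain's covered sequence, against 12.0% with Suz12, and was also the widest peak in 38.1% and 38.2%. In 5 of the 118 domains the highest value was shared by more than 1 peak, and the first was taken.

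The body of the domain was flat. Peaks in the outer 10% of domains without Suz12 had a median value of 10.9, and those further in had medians between 11.7 and 12.0 and did not rise further towards the centre. In domains with Suz12 the medians rose from 11.2 in the outer 10% to 13.3 between 20% and 30% and 14.1 at the centre. Leaving out the peaks touched by Suz12, they still rose, from 11.2 to 12.9. The summit exceeded the second peak of its domain by a median of 2.54 without and 3.77 with Suz12, and the top pair stood a median of 6335 and 6086.5 bp apart.

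**Figure D4:**
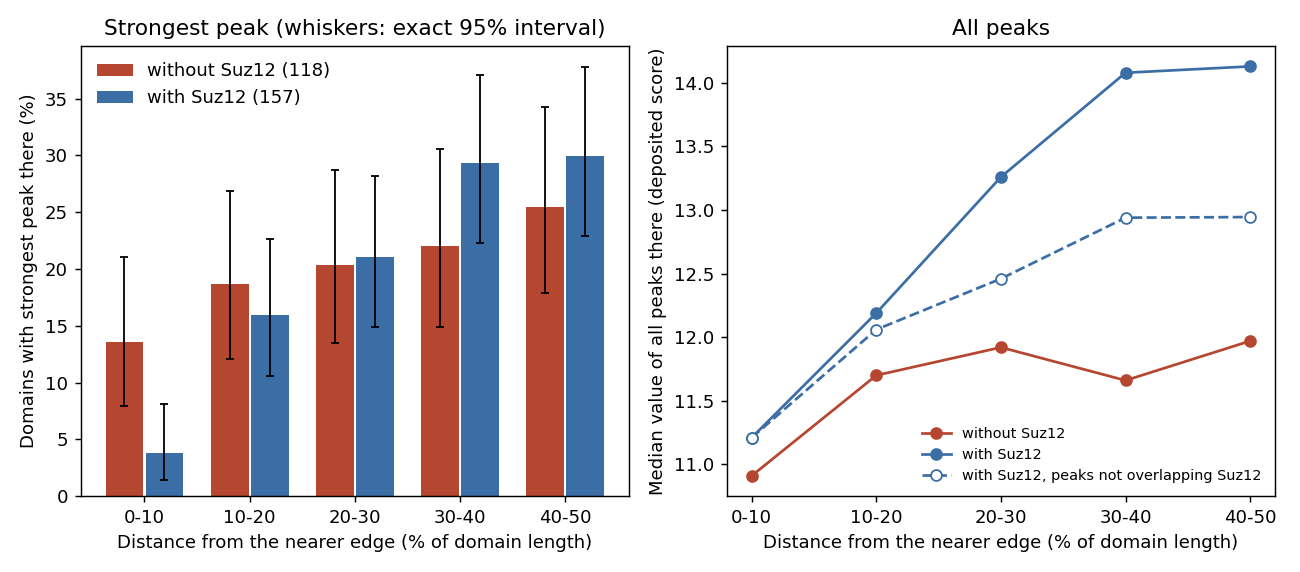
Left, share of domains (%) whose strongest H3K27me3 peak is centred in each band of distance from the nearer edge (% of domain length), with exact 95% intervals. Right, median value (deposited score) of all peaks in each band: domains without Suz12 stay between 10.9 and 12.0, and those with Suz12 rise to 14.1, or to 12.9 without the peaks that overlap Suz12.

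Most domains without Suz12 lay more than 100 kb from any Suz12 peak. No such distance was taken for other H3K27me3 domains, so whether this is far for the Suz12 list is not known. The distance to the nearest had a median of 477 kb (quartiles 129.7 and 1871 kb) and ranged from 7.71 kb to 28.2 Mb. Within 10 kb there were 5 of the 118 domains (4.24%, 95% interval 1.39 to 9.61), within 100 kb 27 (22.9%, 15.7 to 31.5) and within 1000 kb 72 (61.0%, 51.6 to 69.9). Distance to the nearest domain holding Suz12 was similar, with a median of 469.8 kb. In 47 cases (39.8%) that neighbour was itself at least 20000 bp long, as were 157 of all 460 domains holding Suz12 (34.1%). By distance to Suz12, median coverage was 33.6% within 100 kb of Suz12, 39.5% between 100 kb and 1 Mb and 34.0% beyond, and the median highest values were 20.3, 22.6 and 22.2.

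A small group lay beside a domain with Suz12 and was split from it by little more than the joining limit. Of the 118, 7 had a domain holding Suz12 within 10 kb. Nearest to a Suz12 peak was the chromosome 5 domain at 115651118-115671122, 7.71 kb from a peak of value 10.9 and 5.50 kb from a domain with 1 Suz12 peak. On chromosome 3, the domain at 87813363-87844968 lay 5.17 kb from one with 2. On chromosome 11, the domain at 96224554-96245295 lay 5.75 kb from one of 112.2 kb with 23 Suz12 peaks, at 96106630-96218807, yet its own highest value was 14.7. The domain on the same chromosome at 97448731-97479487 also reached only 14.7, and lay 9998 bp from a Suz12 peak of 21.9. On chromosome 9, the domain at 91271663-91302461 had 47.1% coverage, a highest value of 25.7 and a Suz12 peak 9.66 kb away. Proximity to Suz12 thus went with both low and fairly high H3K27me3 values.

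At the other extreme, 7 domains lay more than 5000 kb from any Suz12 peak. A pair on chromosome 15, at 6951144-6979167 and 6999892-7021800 and 20.7 kb apart, was 28.2 Mb from the nearest Suz12 peak and 67.4 and 67.3 Mb from the nearest domain holding one. Their highest values were 17.6 and 21.5. On chromosome 1, the domain at 107959007-107996656 was 13.0 Mb away, with a highest value of 16.4 and 24 peaks in 37.6 kb. That at 174255650-174287260 was 6.17 Mb away and covered over 50.1%. On chromosome 4, the domain at 9765641-9788385 was 5.90 Mb away and reached 30.1. Strong and weak H3K27me3 thus both occurred far from detected Suz12.

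The Suz12 list itself bears on whether numbered Suz12 peaks were left out at these domains. The sources used here do not give the values of unlisted peaks or say why they are unlisted. Its names run to 1735, of which 1477 are listed, in genome order. If the listed peaks on either side of a domain have consecutive numbers, no numbered Suz12 peak lay between them. This was so for 68 of the 118 domains (57.6%, 95% interval 48.2 to 66.7), and, counted by stretch between 2 listed Suz12 peaks, for 56 of the 93 stretches that held the domains (60.2%). Of all neighbouring pairs of listed Suz12 peaks, 85.4% had consecutive numbers. A stretch that holds a long domain is at least as long as that domain, and stretch lengths were not matched in this comparison. A further 42 domains had 1 unlisted number somewhere between their flanking peaks, 7 had 2 and 1 had 4. The 93 stretches held 45 unlisted numbers in all. Each unlisted peak can lie in at most 1 domain, so at most 38 of the 118 could hold an unlisted Suz12 peak, and at least 80 (67.8%) hold none. In a domain that holds none, a Suz12 site can have been missed only before peaks were numbered. Neither read depth nor the caller settings are known, and why a site might have been missed was not tested. The bound of 80 rests on the same assumed order of unlisted numbers, and does not say which domains these are.

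Consecutive flanking numbers were most frequent near Suz12. Unlisted numbers are counted over the whole stretch between the flanking peaks. A domain far from Suz12 lies in a long stretch, which has more room for them. The part that stretch length has in these shares was not tested. Of 27 domains within 100 kb of a Suz12 peak, 21 (77.8%) had consecutive flanking numbers, and of 46 domains more than 1 Mb away 22 (47.8%) did. For the neighbour of the 112.2 kb domain on chromosome 11 and the 67.0 kb domain on chromosome 15, no Suz12 number was unlisted between the flanking peaks. For the longest domain, on chromosome 7, 1 was.

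**Figure D5:**
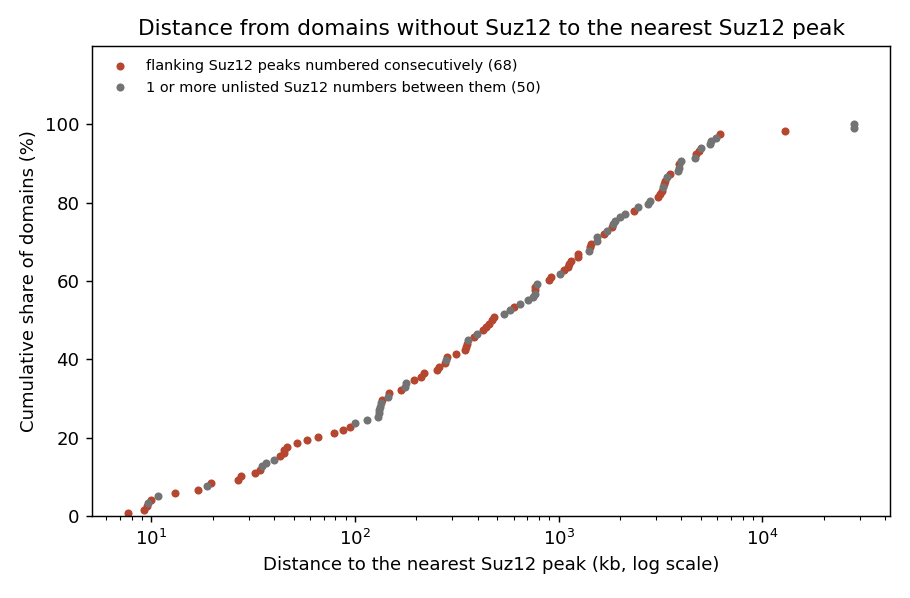
Cumulative share (%) of the 118 domains by distance to the nearest Suz12 peak (kb, log scale), coloured by whether the listed Suz12 peaks on either side have consecutive numbers. The median is 477 kb. Domains with consecutive numbers (68) occur from 7.71 kb to 13.0 Mb.

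Domains without Suz12 were unevenly spread over the chromosomes. Chromosome 15 held 14 of the 118 (11.9%), or 13.5 per 100 Mb, and 9 long domains with Suz12. It had 1412 of the 25897 autosomal H3K27me3 peaks. Chromosome 4 held 12 and 10, and chromosome 7 held 11 and 8, with 1932 and 1885 H3K27me3 peaks. On chromosomes 2 and 11 the order was the other way, with 11 against 19 and 8 against 18. These 2 chromosomes had 2615 and 2413 H3K27me3 peaks. The part of peak number in the spread was not tested. None lay on chromosomes 14 and 16, which held 3 long domains with Suz12 each and 723 and 420 H3K27me3 peaks. On chromosome 15, 11 of the 14 lay from position 78180796 onward. A pair of domains without Suz12 was at most 200 kb apart in 8 cases and at most 25 kb apart in 4. The closest pairs were on chromosome 17 at 46566656-46605507 and 46611537-46632141, 6.03 kb apart, and on chromosome 4 at 41566568-41589908 and 41597001-41630154, 7.09 kb apart. With a slightly longer joining limit each of these pairs would count as 1 domain.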

How the data were processed

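Chromatin of mouse crypts was fixed with formaldehyde, sonicated, precipitated and sequenced, per the labels' protocols. The authors deposited 1 peak list with a score per peak for each antibody; Bowtie, MACS2 and build mm9 are named, without versions or parameters, per the submitters' processing notes. The sources used here do not say if the input served as the control in peak calling; no input peaks were used. The score is therefore used as a rank within a list, and the minimum of 8 leaves weaker sites out of every count.

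H3K27me3 peaks of chromosomes 1 to 19 were joined at gaps of at most 5000 bp, domains of at least 20000 bp were kept, and an overlap of 1 bp with a Suz12 peak sufficed. Distances run from edge to edge. Unlisted peaks were counted from the running numbers of the names, taking the Suz12 list of all chromosomes in file order. Domains named are the 10 longest, and the 5 with the highest peak value, the highest and the lowest coverage, and the shortest and the longest distance to Suz12; other regions were picked with their values in view. The domains, the comparison and the lists were chosen with earlier results of these data known. Planned counts of genes and gene lists, and of base composition, were not made, because no mm9 genome or annotation was used here; the gene table at hand follows GRCm38. The functions were tested on simulated data: of 200 simulated domains 200 were recovered, 80 of them with Suz12. Software was scipy 1.17.1, pandas 2.3.3 and numpy 2.4.6 under Python 3.11.15, with matplotlib 3.10.9 for plots and GenomeInfoDb 1.38.1 for the lengths of mm9 chromosomes. Alternatives were joining gaps of 1000 and 10000 bp, a minimum length of 30000 bp, the upper 50% of either list by score, and no Suz12 peak within 5000 bp of an edge; gaps of 2000 and 3000 bp were added after seeing the data.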

Additional observations from a re-analysis of the deposited data

How the results depend on the processing

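The number of long domains without Suz12 was 1 at a joining gap of 1000 bp, 18 at 2000 bp, 44 at 3000 bp and 310 at 10000 bp, 39 at a minimum length of 30000 bp, and 29 for the upper 50% of H3K27me3 peaks. Their share of long domains was 16.5% at 2000 bp, 26.2% at 3000 bp, 59.5% at 10000 bp, 33.1% at 30000 bp minimum length, 22.7% with the upper 50% of H3K27me3 peaks and 52.0% with the upper 50% of Suz12 peaks. At a gap of 2000 bp the median domain had 22 H3K27me3 peaks, 59.4% coverage, gaps of 306 bp and a distance to Suz12 of 223.4 kb, and at 3000 bp 19 peaks, 49.0% coverage and gaps of 422.5 bp. At a gap of 10000 bp the median domain had 13 H3K27me3 peaks, 21.3% coverage and gaps of 790 bp. Restricted to the upper 50% of H3K27me3 peaks, these were 13 peaks, 41.9% and 626 bp, and at a minimum length of 30000 bp the median was 24 peaks. With the upper 50% of Suz12 peaks the median distance to Suz12 was 1155 kb, and consecutive flanking numbers fell to 11.9% because peaks left out count as unlisted. In the other 21 of 49 values computed, the count stayed within 1.5 times its value and the rest within their 95% intervals; these include the position of the strongest peak at gaps of 2000, 3000 and 10000 bp, at the longer minimum length and with either list restricted. Only the count was taken at a gap of 1000 bp. Removing domains with a Suz12 peak within 5000 bp of an edge removed none, so it could change no value and is not counted. Leaving out a replicate could not be tried. No paired analysis was possible because only 1 library was made with each antibody. Unknown read depth and the minimum value of 8 limit what the absence of Suz12 can show.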
